A study of Homo sapiens with 73 samples.

Results

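ARHGAP42, PAM, UNC13A, CAMK1G, ITM2A and TSR1 are 6 of the 439 genes whose time-adjusted levels lay wholly apart between chemotherapy-treated and solvent-treated lineages of an Ewing sarcoma line, among 14565 genes kept of 36233 measured. They were chosen by symbol because, in these same libraries, all 7 treated lineages lay above (ARHGAP42, PAM) or below (UNC13A, CAMK1G, ITM2A, TSR1) all 3 DMSO lineages. Their p-values in that comparison were also among the smallest in their direction. The treated-against-DMSO levels below are therefore descriptions without a test. The line is CHLA-9, an established Ewing sarcoma line that carries the EWSR1-FLI1 fusion and is the single origin of all cultures. The treated lineages R1 to R7 (VDC-EC) were exposed by turns to vincristine, doxorubicin and cyclophosphamide (VDC) and to etoposide and cyclophosphamide (EC), each for 5 days at the concentration with 70% effect. RNA was taken after regrowth without drug, so that it reports surviving, regrown cells. The DMSO lineages R8 to R10 received solvent on the same calendar, and 1 library of the untreated parental line was also sequenced. The 5 cycles gave 10 time points, odd ones after VDC and even ones after EC, with 49 treated, 23 DMSO and 1 parental library. At time point 2 only DMSO lineages had libraries, at time point 3 only treated ones, and at time point 7 a single DMSO lineage, R8.

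The 6 genes act in unrelated parts of the cell. ARHGAP42 encodes a GRAF-family GTPase-activating protein that restrains actomyosin contraction. PAM encodes the enzyme that amidates the C terminus of secreted peptides in neuroendocrine cells. UNC13A encodes the neuronal protein that primes synaptic vesicles for release, and CAMK1G a calcium and calmodulin-dependent kinase of neurons. ITM2A encodes a type II membrane protein with a BRICHOS domain, first described in cartilage and later in T cells and muscle precursors. TSR1 encodes a factor of late 40S ribosomal subunit maturation. In GRCh38 with the GENCODE 29 annotation, all 6 are protein-coding genes on 6 chromosomes. ARHGAP42 spans chr11:100687653-100993941 (plus strand), PAM chr5:102753981-103031105 (plus), UNC13A chr19:17601328-17688365 (minus), CAMK1G chr1:209583717-209613938 (plus), ITM2A chrX:79360384-79367667 (minus) and TSR1 chr17:2322503-2337507 (minus). TSR1 overlaps SRR on the opposite strand over 2758 bases and SGSM2 over 10 bases. Whether the counting used the strand is not given in the sources used here, so reads of these neighbours cannot be told apart from TSR1 reads where they overlap.

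The deposited values are quantile-normalized counts, so library depth is unknown. Treated columns shared 1 set of values and DMSO and parental columns another, which differed by at most 0.0172 on the log2 scale above a value of 10. Of the Ewing sarcoma markers, 7 of 8 were kept, with CCND1, NR0B1, LIPI, FLI1 and EWSR1 present in every library. The surface antigen CD99, a defining marker, had a median below 1 in both arms. It was also 0.75 in the parental library and at most 2.31 in any library, so its low value was not particular to the lineages. Why it was low was not tested. Certain late libraries stood apart. In the last libraries of R1 (time point 9) and of R2 (time point 10) the markers of fibroblast and muscle (9 of 10 kept, MYOD1 at a median below 1) summed to 75471 and 88786. In the other 47 treated libraries they summed to between 17797 and 48472, and in DMSO libraries to between 12851 and 36616. The largest parts were collagen genes: COL1A2, COL3A1 and COL1A1 reached 35961, 22787 and 22349 in treated libraries. ACTA2 reached 4760 there, but the muscle genes MYH11 and DES only 121 and 82.6. The Ewing sarcoma markers summed to 24865 to 27157 in that pair of libraries, 41420 to 68249 in the other treated ones and 42220 to 67727 in DMSO libraries. CCND1 held most of each sum, at 18942 to 59514 in treated and 31436 to 59518 in DMSO libraries. No other marker of that list passed 5544, so the sum says little about the others. In the DMSO arm, R9 at time points 8 and 9 and R10 at time points 9 and 10 stood apart. Blood cell markers (3 of 8 kept; CD3E, CD68 and HBB at medians below 1) summed to 167 to 694 in treated libraries, 1375 to 2904 in these 4 DMSO libraries and 318 to 659 in the other 19. ITGB2 and CD79A were the largest of them, reaching 1740 and 1050 in DMSO libraries. CORO1A reached 97.5 there and PTPRC 20.3. Epithelial markers (3 of 8 kept; EPCAM, CDH1, KRT19, KRT5 and KRT14 at medians below 1) summed to 15.1 to 763 in treated libraries, 428 to 1461 in the 4 late DMSO libraries and 15.9 to 351 in the others. The part of these marker changes in the results below was not tested; level differences, gaps and slopes are given with and without these 6 libraries. In bulk RNA, fewer cells with a transcript and less of it in each cell cannot be told apart.

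ARHGAP42 was higher in treated lineages. Its time-adjusted level, on the log2(value + 1) scale, ran from 5.83 in R3 through a median of 6.19 to 6.45 in R7, against 5.53, 4.70 and 4.85 in the DMSO lineages R8, R9 and R10. The means were 6.17 ± 0.21 (SD, n = 7) and 5.03 ± 0.44 (SD, n = 3), a difference of 1.14 or 2.20-fold. The nearest lineages, R3 and R8, were 0.31 apart. The order of the treated lineages is a description only, since the error of a single lineage's level was not estimated. PAM showed the widest separation of the 6. Treated lineages ran from 6.46 in R3 through a median of 6.73 to 7.63 in R7, against 5.97 in R8, 5.03 in R9 and 5.02 in R10. The means were 6.84 ± 0.39 (SD, n = 7) and 5.34 ± 0.54 (SD, n = 3), a difference of 1.498 or 2.83-fold, with a gap of 0.50. For both genes R7 was highest and R3 lowest among treated lineages, and R8 was the DMSO lineage nearest to them.

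The other 4 genes were lower in treated lineages. UNC13A ran from 3.87 in R2 through a median of 4.22 to 4.56 in R6, against 4.77 in R8, 6.03 in R9 and 5.68 in R10. The means were 4.22 ± 0.24 (SD, n = 7) and 5.49 ± 0.65 (SD, n = 3), a difference of -1.27 with a gap of -0.21 between R6 and R8, where gaps carry the sign of the difference. CAMK1G ran from 9.66 in R6 through a median of 9.87 to 9.96 in R4, against 10.06 in R8, 10.43 in R9 and 10.28 in R10, a difference of -0.43 with a gap of -0.10. ITM2A ran from 11.77 in R2 through a median of 11.89 to 11.97 in R7, against 12.19 in R8, 12.13 in R9 and 12.23 in R10, a difference of -0.29 with a gap of -0.16. TSR1 ran from 10.21 in R3 through a median of 10.30 to 10.34 in R7, against 10.45, 10.48 and 10.49 in R8, R9 and R10, a difference of -0.18 or 0.882-fold with a gap of -0.11. R8 was again the nearest DMSO lineage for UNC13A, CAMK1G and TSR1, and R9 for ITM2A. ITM2A and TSR1 had the smallest differences and the smallest spread: the SD among treated lineages was 0.078 for ITM2A and 0.041 for TSR1, and among DMSO lineages 0.052 and 0.021.

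**Figure D1:**
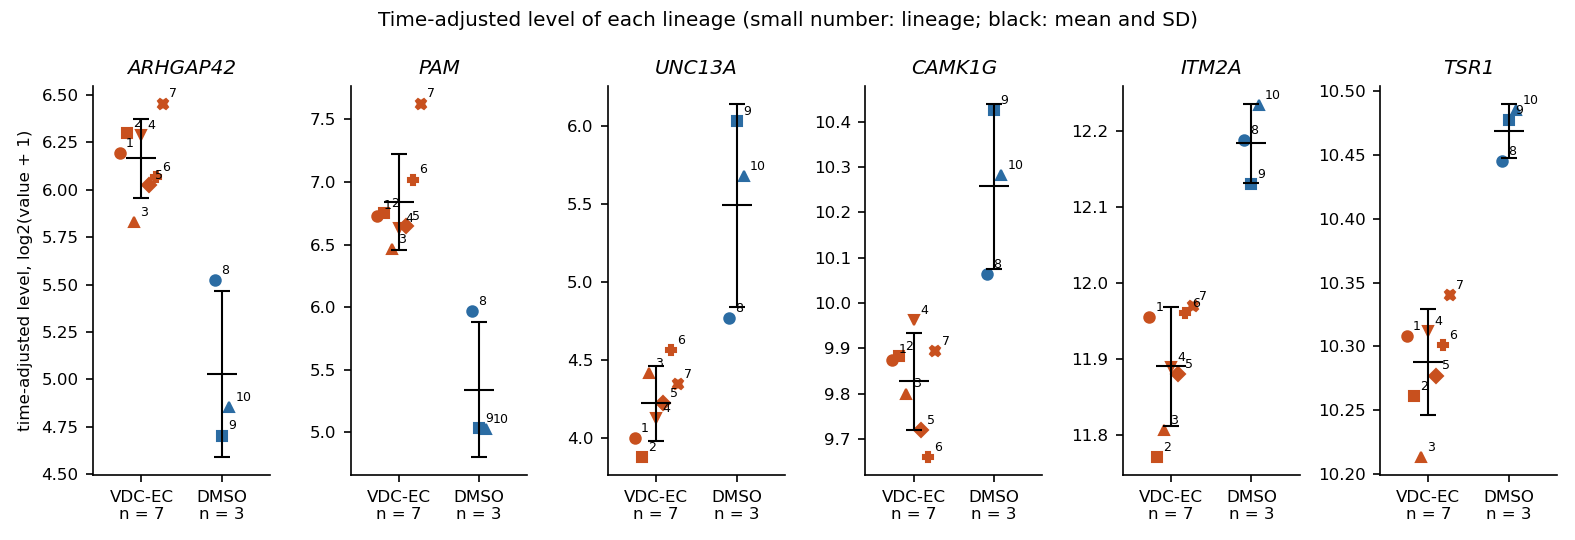
Time-adjusted level of each lineage on the log2(value + 1) scale, 1 panel per gene, VDC-EC lineages (orange, n = 7) left of DMSO lineages (blue, n = 3); the small number is the lineage and the black bar the mean with its SD. The arms do not overlap in any panel, as the choice of the genes requires, and R8 is the DMSO lineage nearest to the treated ones in 5 of the 6 panels.

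These separations must be read against their background. Lineages lay apart with treated higher in 1.08% of genes and with treated lower in 1.93%. With limma, 0 of 14565 genes passed an adjusted p of 0.05 in this comparison (percentage called 0), 1965 were below 0.05 before adjustment and none was below 0.141 after it; with all libraries and lineage as a random replicate block the count was 19. By p-value ARHGAP42 ranked 3 and PAM 5 among higher genes, and the gene ranked 6, EPB41L3, had a difference of 1.59 and a gap of 0.20. ITM2A ranked 1, TSR1 3, CAMK1G 4 and UNC13A 5 among lower genes, and MAPK13, ranked 6, had -0.61 and a gap of -0.18. The other genes at these ranks were MKX (0.96), TTLL7 (1.81) and INHBA (1.20) among higher genes and ITGB2 (-0.75) among lower ones. They were apart too but are not members, so membership does not follow the ranks alone.

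The gap was a late one. With time points added in order, none of the 6 genes was apart at time point 1, and UNC13A and CAMK1G were apart with time points up to 3, when 5.99% of all genes were. None was apart with time points up to 4, 5 or 6, when 4.90%, 1.91% and 2.14% of genes were. UNC13A alone was apart up to time point 7 (2.18% of genes), UNC13A and CAMK1G up to 8 (2.37%), and UNC13A, CAMK1G, ITM2A and TSR1 up to 9 (2.00%). ARHGAP42 and PAM were apart only once time point 10 was included. Because the genes were chosen at that last step, a rise in their number towards it is built into the choice. The mean differences did not all grow. With time point 1 alone they were 0.39 for ARHGAP42, 1.15 for PAM, 0.02 for ITM2A and -0.12 for TSR1, and up to time point 7 they were 0.47, 1.19, -0.14 and -0.07. UNC13A and CAMK1G began farther apart, at -0.69 and -0.91, came closest up to time point 6, at -0.38 and -0.23, and ended at -1.27 and -0.43. The final difference of CAMK1G was thus smaller than that at its first time point.

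Single time points also placed the separations late, from time point 6 on, but in another order of genes. The libraries of the arms overlapped for all 6 genes at time point 1 (2.84% of all genes apart), time point 4 (5.73%) and time point 5 (0.330%). PAM alone was apart at time point 6 (2.71%). UNC13A, ITM2A and TSR1 were apart at time point 7, where the DMSO arm was the single library of R8 and 28.0% of all genes were apart. ARHGAP42 and PAM were apart at time point 8 (2.40%), ARHGAP42, CAMK1G and ITM2A at time point 9 (8.03%), and ARHGAP42, PAM, CAMK1G and TSR1 at time point 10 (15.9%), where 3 treated and 2 DMSO libraries existed. No gene was apart at every time point, and only PAM had a higher treated mean at all 8 time points with both arms. ARHGAP42 had a higher treated mean at 7 of 8, and UNC13A, ITM2A and TSR1 a lower one at 7 of 8 each. CAMK1G had a lower treated mean at 6 of 8.

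**Figure D2:**
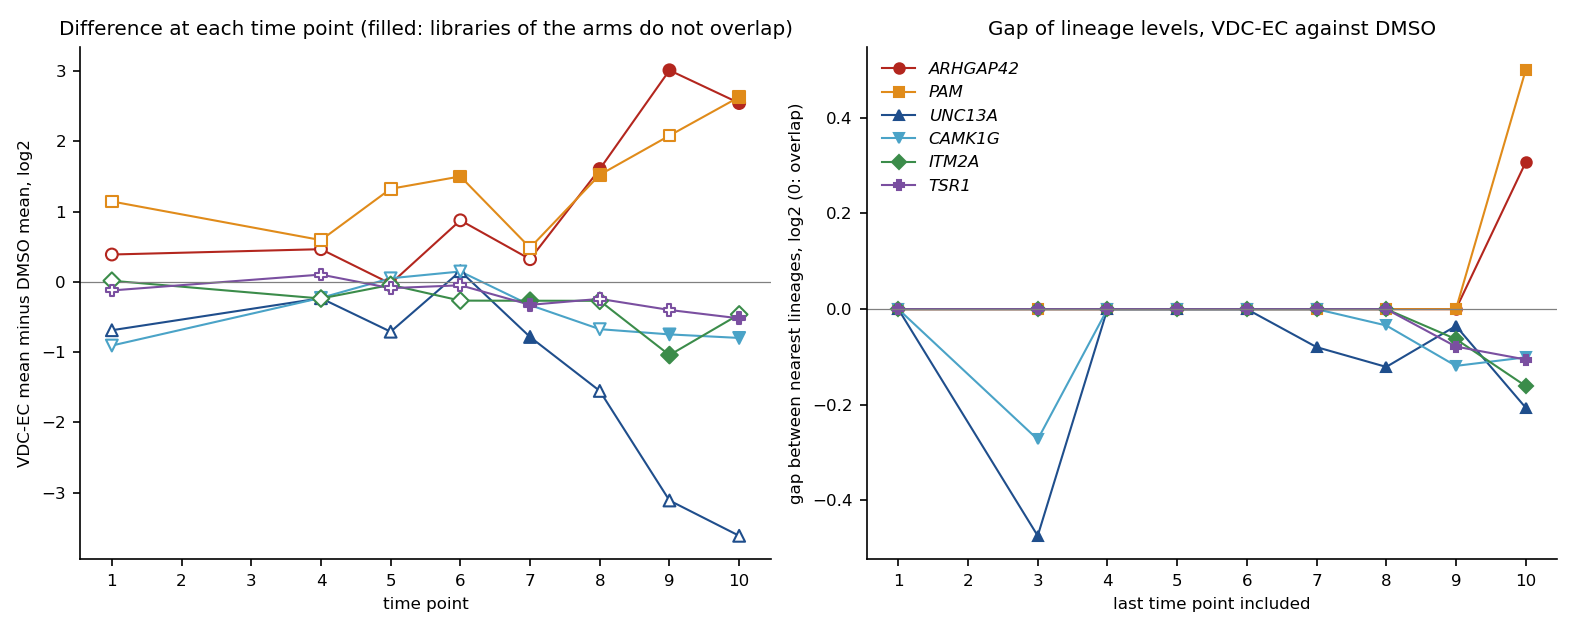
Left, mean of VDC-EC libraries minus mean of DMSO libraries on the log2 scale at each time point with both arms, with filled symbols where the libraries of the arms do not overlap. Right, gap between the nearest VDC-EC and DMSO lineages, positive where treated lineages are higher, when only time points up to the one on the axis are used; 0 means overlap, and all 6 genes are away from 0 together only at time point 10.

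ARHGAP42 began close in both arms. Treated values at time point 1 ran from 45.4 through a median of 66.2 to 73.8, against 42.2, 46.1 and 52.0 in DMSO. At time point 5 they ran from 18.7 through 62.2 to 114, against 43.7, 57.5 and 94.2 in DMSO. The arms overlapped at both, and the parental library had 48.7. At time point 8 the treated values ran from 49.8 through 64.5 to 97.4, against 4.17 in R9, 43.3 in R8 and 44.2 in R10. At time point 9 they were 68.7, 87.1 and 819.6, against 11.3, 22.1 and 32.9 in DMSO, and at time point 10 47.9, 61.7 and 1064, against 24.3 and 24.5. Treated libraries other than R1 and R2 thus stayed within their earlier range while the DMSO values were lower than at most earlier time points. The 2 highest values, 819.6 in R1 and 1064 in R2, were single libraries. The other 47 treated libraries lay between 18.7 and 124, and the 4 late libraries of R9 and R10 between 4.17 and 24.3, against 14.3 to 98.7 in the other 19 DMSO libraries.

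PAM was low at the start in every culture and higher later in both arms. It ran at time point 1 from 2.09 through 6.46 to 23.2 in treated libraries, against 1.10, 2.91 and 4.37 in DMSO; the parental library had 25.3. At time point 4 it ran from 33.8 through 82.3 to 605 in treated libraries, against 52.3 and 138 in DMSO. At time point 6 it ran from 152 through 246 to 466.5 in treated libraries, against 52.6, 108 and 121 in DMSO, the first time point at which the arms did not overlap. At time point 8 it ran from 141 through 296 to 398, against 59.3, 105 and 128. At time point 9 the treated values were 142, 239.6 and 3443, against 73.2, 97.2 and 213, and the arms overlapped through R8. At time point 10 they were 129.8, 283 and 4135, against 66.0 and 110.3. The pair of values above 3000 came from R1 and R2, as for ARHGAP42.

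UNC13A stayed low in treated libraries throughout. It ran at time point 1 from 15.5 through 23.8 to 30.2, against 19.9, 48.5 and 55.0 in DMSO; the parental library had 33.7. At time point 6 it ran from 10.3 through 19.3 to 28.99, against 12.7, 16.5 and 18.2 in DMSO, so that the arms lay on top of each other at mid-course. At time point 8 treated libraries ran from 13.4 through 16.5 to 23.2, against 371 in R9, 13.8 in R10 and 26.4 in R8. At time point 9 the treated values were 4.90, 28.7 and 32.1, against 26.8 in R8, 226 in R10 and 591 in R9. At time point 10 they were 0.0293, 10.9 and 42.0, against 33.2 in R8 and 285 in R10. High values thus came from R9 at time points 8 and 9 and from R10 at time points 9 and 10, and never from R8. The last libraries of R1 and R2 had the highest single values of ARHGAP42 and PAM. They also had the lowest UNC13A values of all, 4.90 at time point 9 and 0.0293 at time point 10.

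CAMK1G was apart at the end and, R8 aside, at the start. Its values at time point 1 ran from 581 through 909 to 1115 in treated libraries, against 906 in R8, 2150 in R10 and 2291 in R9, while the parental library had 729. At time point 6 it ran from 536 through 814 to 1047, against 519.8, 648 and 1045 in DMSO. The DMSO lineages thus entered the middle of the series at treated levels and left it above them. At time point 8 treated values ran from 543 through 800.3 to 994, against 918, 1139.9 and 1600.2 in DMSO. At time point 9 they were 797, 895 and 1142, against 1178 in R8, 1649.9 in R10 and 1985 in R9, and at time point 10 952, 968 and 1060, against 1222 in R8 and 2437 in R10.

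ITM2A, the most abundant of the 6, started at one level in both arms. Values at time point 1 ran from 6826 through 7674 to 8328 in treated libraries, against 7123, 7482 and 8266 in DMSO, beside 6515 in the parental library. At time point 5 it ran from 3443 through 4332 to 5554, against 4096, 4325 and 4985 in DMSO, and at time point 8 from 2106 through 3154 to 3905, against 2767, 3957 and 4219. Values in both arms were lower than at time point 1, and the arms overlapped. At time point 9 the treated values were 907, 2235 and 2445, against 2982, 3233 and 4491 in DMSO, and the arms were apart. At time point 10 they were 595, 2466 and 2955, against 1757 and 2878, and the arms overlapped again. The lowest values, 907 and 595, were those of R1 and R2.

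TSR1 varied least. Its values at time point 1 ran from 1209 through 1246 to 1356 in treated libraries, against 1284, 1392 and 1430.0 in DMSO, beside 1474 in the parental library. At time point 6 it ran from 1237 through 1345 to 1549.7, against 1348, 1417 and 1440.4 in DMSO. At time point 8 it ran from 1053 through 1207 to 1716, against 1375, 1538 and 1589 in DMSO. The arms overlapped at all of these. At time point 9 the treated values were 849 in R4, 1163 in R1 and 1372 in R5, against 1121 in R8, 1464 in R10 and 1895 in R9. At time point 10 they were 769 in R5, 1074 in R6 and 1094 in R2, against 1313 in R8 and 1461 in R10. The lowest libraries were thus R5 at time point 10 and R4 at time point 9, whereas for UNC13A and ITM2A they were the last R1 and R2 libraries.

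**Figure D3:**
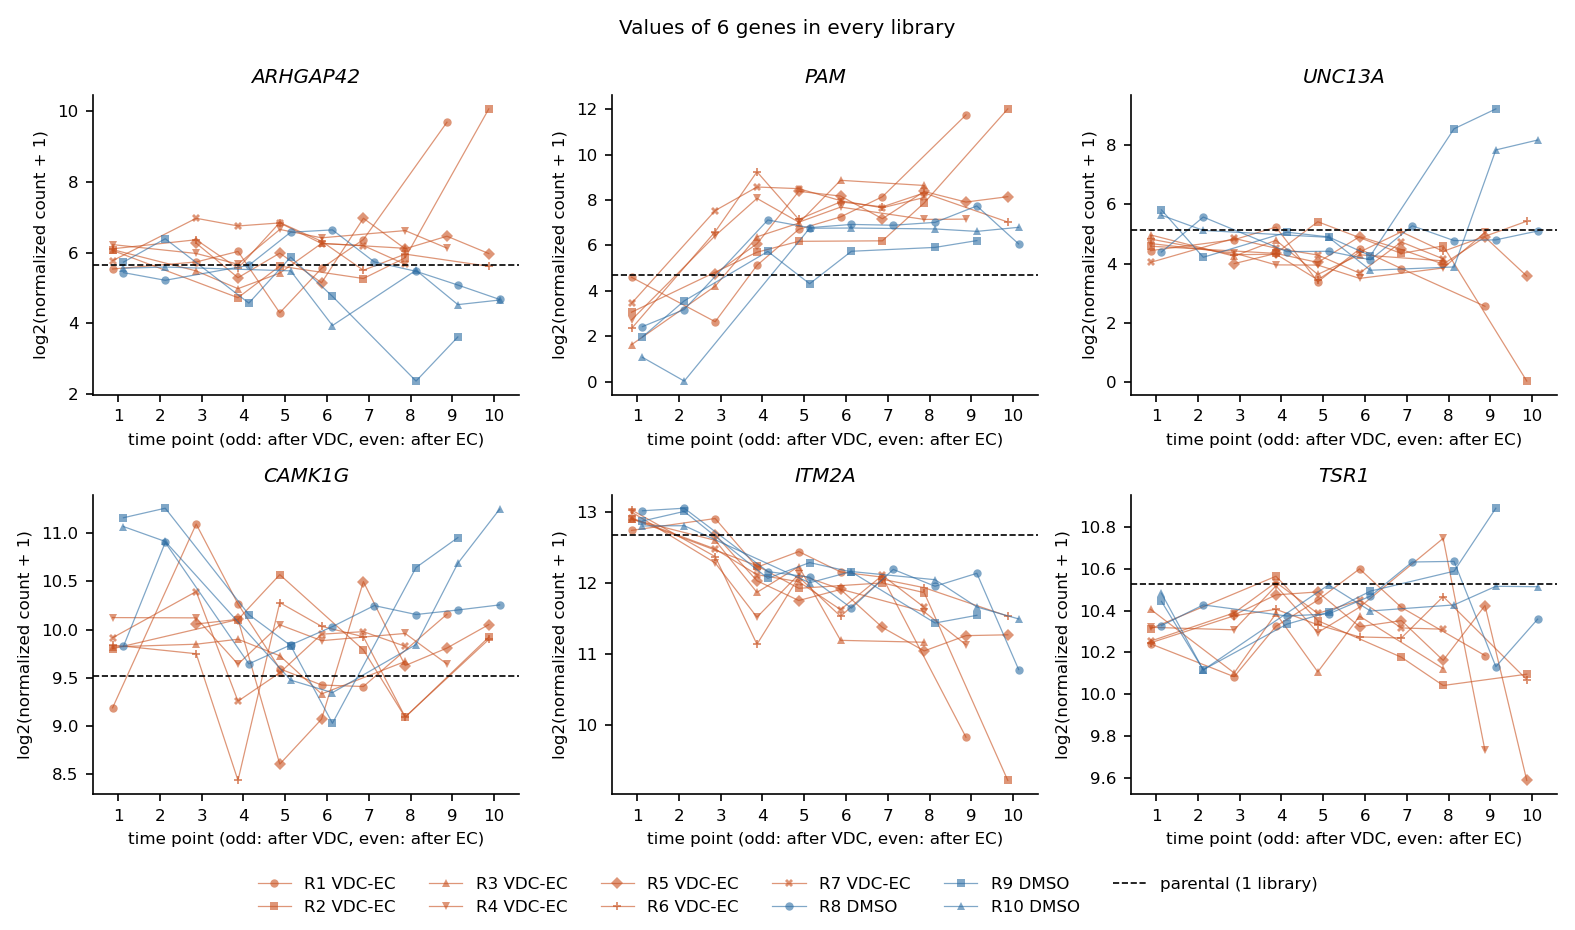
Value of each gene in every library, as log2(normalized count + 1) against time point, with VDC-EC lineages in orange, DMSO lineages in blue and the parental library as a dashed line. The last libraries of R1 (time point 9) and R2 (time point 10) lie far from other treated libraries for ARHGAP42, PAM, UNC13A and ITM2A, and R9 and R10 rise late for UNC13A.

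The late libraries carried much of the separation. Without the last R1 and R2 libraries, only CAMK1G and TSR1 of the 6 were still apart, and the level difference was 0.79 for ARHGAP42, 1.14 for PAM, -0.95 for UNC13A and -0.15 for ITM2A. Without the 4 late DMSO libraries of R9 and R10 all 6 were still apart, with UNC13A at -0.50, ARHGAP42 at 0.72 and TSR1 at -0.10 with a gap of -0.0046. Without all 6 of these libraries UNC13A, CAMK1G and TSR1 were apart, with differences of -0.37, -0.29 and -0.11 and gaps of -0.03, -0.09 and -0.0052, while 1.94% of all genes were apart. PAM then differed by 1.19, ARHGAP42 by 0.55 and ITM2A by -0.17, and their lineages overlapped. Leaving out any 1 of the 10 lineages kept all 6 apart, which is likely for genes chosen with all 10 apart. Between 3.22% and 23.9% of all genes were apart in those fits, against 3.01% with all lineages. Without R8 the gaps widened to 1.17 for ARHGAP42, 1.42 for PAM and -1.21 for UNC13A, but 23.9% of all genes were then apart and 1352 passed limma's test, so a wide gap was common there.

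Against the parental library, which has no replicate, the genes fell into 3 kinds. ARHGAP42's time-adjusted level was above the parental value in 7 of 7 treated and 0 of 3 DMSO lineages, and UNC13A's in 0 of 7 treated and 2 of 3 DMSO lineages. For these, the parental value lay between the arms' means: the ARHGAP42 means were 0.53 above it in treated and -0.61 from it in DMSO lineages, and the UNC13A means -0.90 and 0.38 from it. For UNC13A the DMSO side rested on the late libraries of R9 and R10. Only 9 of 23 DMSO libraries were above the parental 33.7, and the 19 other than those late ones had a median of 26.8. PAM and CAMK1G were above the parental value in all 10 lineages, PAM by 2.12 in treated and 0.62 in DMSO lineages and CAMK1G by 0.32 and 0.75. ITM2A and TSR1 were below it in all 10, ITM2A by -0.78 in treated and -0.49 in DMSO lineages and TSR1 by -0.24 and -0.06. PAM and ITM2A thus lay on the same side of the parental value in both arms, and the treated lineages lay farther from it.

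Changes within lineages do not use the level difference between arms, although the same libraries enter both, and were tested. PAM rose by 0.66 ± 0.089 per time point on the log2 scale (SE, 7 of 7 treated lineages rising; adjusted p = 0.00085, limma), with single lineages from 0.38 in R5 through a median of 0.50 to 1.08 in R3. It also rose in DMSO lineages, by 0.56 ± 0.14 (SE, 3 of 3 rising, at 0.46, 0.46 and 0.75; adjusted p = 0.0284, limma). ITM2A fell by 0.23 ± 0.023 per time point in treated lineages (7 of 7 falling, from -0.33 in R2 through -0.19 to -0.12 in R6; adjusted p = 0.00033, limma), and in DMSO lineages by 0.17 ± 0.036 (3 of 3 falling, at -0.18, -0.19 and -0.14; adjusted p = 0.0175, limma). The background of such calls is large: 16.3% of all genes rose and 22.8% fell in treated lineages, and 6.11% rose and 6.14% fell in DMSO lineages. Without time point 1 the PAM slope in treated lineages was 0.51 with an adjusted p of 0.0667 (limma), and neither DMSO call held without time point 1, without R9 or without R10. ITM2A's fall in treated lineages passed in every setting tried, and without the 6 late libraries it was -0.17 and PAM's rise 0.59.

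The other 4 genes passed the slope test in neither arm. ARHGAP42 changed by 0.12 per time point in treated lineages (adjusted p = 0.146, limma; 5 of 7 positive, with 0.41 in R1 and 0.36 in R2 and the rest between -0.06 and 0.07) and by -0.18 in DMSO lineages (adjusted p = 0.192; 3 of 3 negative, -0.39 in R9). UNC13A changed by -0.10 in treated lineages (adjusted p = 0.214, limma; 6 of 7 negative) and by 0.25 in DMSO lineages (adjusted p = 0.0933; 0.02 in R8, 0.50 in R9 and 0.23 in R10). For these 2 genes a few libraries held most of the slope. Without the last R1 and R2 libraries the treated slope of ARHGAP42 was 0.01 and that of UNC13A -0.03. In that fit the unchanged DMSO slopes passed, ARHGAP42 with an adjusted p of 0.0443 and UNC13A with 0.0385 (limma), at an SE of 0.054 and 0.070 per time point, against 0.094 and 0.093 with all libraries. Without the 4 late DMSO libraries the DMSO slope of UNC13A was -0.13 (adjusted p = 0.259), the opposite sign. CAMK1G changed by -0.02 in treated and -0.03 in DMSO lineages, and TSR1 by -0.02 in treated and 0.03 in DMSO lineages. Without the late DMSO libraries CAMK1G fell in DMSO lineages, by 0.22 per time point (adjusted p = 0.0281, limma). Without all 6 late libraries the treated slopes were 0.01 for ARHGAP42, -0.03 for UNC13A, -0.03 for CAMK1G and -0.02 for TSR1. The DMSO slopes were then -0.12 for ARHGAP42 (adjusted p = 0.0457, limma), -0.13 for UNC13A (0.0969), -0.22 for CAMK1G (0.0249), 0.02 for TSR1, 0.73 for PAM (0.0103) and -0.16 for ITM2A (0.00662). The difference in slope between arms, the test of a widening gap, was 0.30 ± 0.11 for ARHGAP42, 0.11 ± 0.16 for PAM, -0.35 ± 0.11 for UNC13A, 0.01 ± 0.02 for CAMK1G, -0.05 ± 0.04 for ITM2A and -0.05 ± 0.02 for TSR1 (SE). None of the 6 passed, with adjusted p-values from 0.493 to 0.876 (limma), and neither did any other gene: 0 of 14565 were called (percentage called 0), although 1373 were below 0.05 before adjustment.

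**Figure D4:**
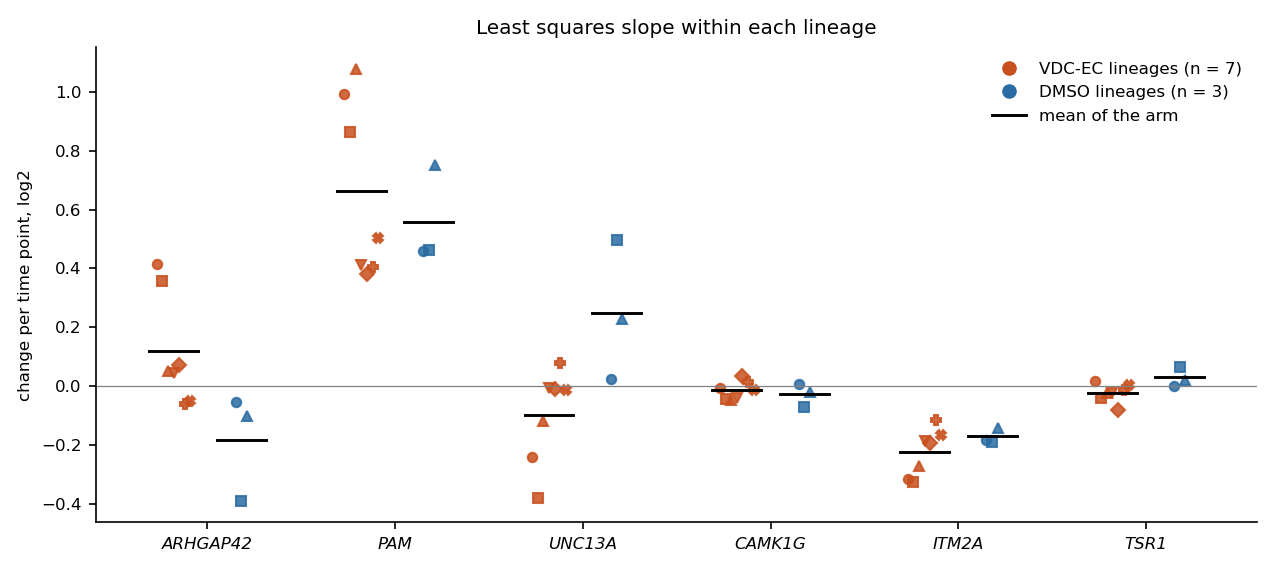
Least squares change per time point of log2(value + 1) within each lineage, VDC-EC lineages (orange, n = 7) left of DMSO lineages (blue, n = 3) for each gene, with the arm mean as a black bar. PAM lies above 0 and ITM2A below 0 in all 10 lineages, while the ARHGAP42 and UNC13A slopes of R1 and R2 stand apart from those of the other treated lineages.

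No gene of the 6 passed the test between VDC and EC. In treated libraries the level after VDC minus that after EC, with lineage as a block and a linear time term, was 0.41 ± 0.29 for ARHGAP42, -0.62 ± 0.44 for PAM, 0.05 ± 0.26 for UNC13A, 0.25 ± 0.15 for CAMK1G, 0.20 ± 0.15 for ITM2A and -0.12 ± 0.06 for TSR1 (SE). Adjusted p-values ran from 0.361 for TSR1 to 0.949 for UNC13A (limma). Among all genes, 0 of 14565 passed (percentage called 0); 2118 were below 0.05 before adjustment and the lowest adjusted value was 0.0511. Without the last R1 and R2 libraries, 50 genes passed, none of them among the 6.

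The members were compared with their own pathways through lists named with earlier results of these data in view, by the slopes of treated lineages. Of the 12 kept peptide amidation and prohormone processing genes, 9 rose and 1 fell, where 16.3% of all genes rose and 22.8% fell; PAM, PCSK5 and VGF had the largest slopes. PCSK5, a proprotein convertase, rose by 0.39 per time point (adjusted p = 0.00116, limma) and VGF, a neuropeptide precursor, by 0.42 (adjusted p = 0.00735). PCSK1, CPE, SCG2, CPD, FURIN and PCSK6 also rose, by 0.06 to 0.36, and PCSK7 fell by 0.05. In DMSO lineages PAM, VGF (0.80, adjusted p = 0.0123) and CPD rose, where 6.11% of all genes did. The median slope of the list was 0.27 in treated and 0.15 in DMSO lineages, against -0.01 over all genes in each arm. Summed, the list reached 16678 and 18199 in the last R1 and R2 libraries, beside 6030 to 8918 in the other treated libraries. It ran from 10392 to 15485 in the 4 late DMSO libraries, beside 6407 to 8154 in the other DMSO libraries, so the late libraries of both arms had the highest sums. PAM is itself in the list, at 3443 and 4135 in the last R1 and R2 libraries. In the 4 late DMSO libraries it was only 59.3 to 110, so other genes held their high sums. VGF, for one, reached 5374 in DMSO and 1097 in treated libraries.

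The other lists were more mixed, and their counts stand against the same 16.3% rising and 22.8% falling among all genes. Of the 13 kept genes of synaptic vesicle priming and exocytosis, 2 rose and 4 fell in treated lineages, not far from those shares. SYT1, the calcium sensor of vesicle release, rose by 0.47 (adjusted p = 0.00014, limma) and the SNARE genes SNAP25 and VAMP1 fell by 0.17 and 0.17; in DMSO lineages SYT1 also rose, by 0.52, and SNAP25 fell, by 0.20. Of the calmodulin-dependent kinases, CAMK1D, a paralogue of CAMK1G, rose by 0.58 in treated (adjusted p = 0.00065, limma) and 0.56 in DMSO lineages, and CAMK2G fell by 0.03 in treated lineages. Of the 6 genes of the ITM2 family and other BRICHOS domain proteins, 2 rose and 2 fell: ITM2A fell most, BRICD5 fell by 0.13 and the tendon gene TNMD rose by 0.22. Of the 18 factors of 40S subunit maturation, 5 rose and none fell. LTV1, RIOK3 and NOB1 rose by 0.06, 0.06 and 0.05, and TSR1 was at -0.02. All 6 members were apart between arms by their choice. In the pathway lists described here no other gene was apart, except NOB1 in the 40S list, whose gap was -0.02. Of the cell type markers, NR0B1 (gap -0.05) and ITGB2 (gap -0.28) were apart with treated lower.

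The 6 genes did not form a single pattern. Over the 49 treated libraries PAM and ITM2A ran against each other, at a Pearson r of -0.85 (-0.82 without the last R1 and R2 libraries) and -0.71 over the 23 DMSO libraries. ARHGAP42 correlated with PAM at 0.47, with UNC13A at -0.63 and with ITM2A at -0.60 in treated libraries, but at 0.15, -0.06 and -0.12 without those 2 libraries. TSR1 and CAMK1G correlated with the other members at r between -0.33 and 0.22 in treated libraries. These values are descriptions over libraries that share lineages and a common normalization. The genes most like each member were, for PAM, ECM1, NEK6 and SCRN1 at r of 0.95, 0.94 and 0.94 over treated libraries and 0.81, 0.83 and 0.79 over DMSO libraries. For ITM2A they were FOCAD, NPY1R and FAM83H at 0.92, 0.92 and 0.91, and 0.46, 0.78 and 0.73 over DMSO libraries. For CAMK1G they were KIFAP3, SLC25A42 and KDM6B at 0.82, 0.79 and 0.79, and 0.51, 0.15 and 0.76 in DMSO libraries. Likeness to ARHGAP42 (NCKAP5, PNMA2 and CCN4, each 0.85) dropped to 0.45, 0.47 and 0.57 without the 2 libraries. Likeness to UNC13A (CHRDL1, LMO3 and SLC16A5, at 0.76, 0.76 and 0.74) dropped to 0.32, 0.28 and 0.29, and over DMSO libraries CHRDL1 stood at -0.76.

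TSR1 differed from the other 5 in its chromosomal neighbourhood, a comparison made after the values were seen. Its 3 most similar genes, KIF1C, SENP3 and CRK (r of 0.88, 0.85 and 0.82 over treated and 0.13, 0.04 and 0.36 over DMSO libraries), all lie on chromosome 17 within 5.24 Mb of it. Positions were found for 13632 of the 14565 kept genes. Of the 113 other kept genes within 5 Mb of TSR1, 16 had all treated lineages below all DMSO lineages, or 14.2%, against the 1.93% of all genes given above; none had them above. Their median level difference was -0.12, and 94 of 113 were below 0. Within 5 Mb of ARHGAP42 (16 genes), PAM (7) and ITM2A (21) no gene was apart, within 5 Mb of CAMK1G 2 of 61 were apart with treated lower, and within 5 Mb of UNC13A 3 of 172 with treated lower and 4 with treated higher. The medians there lay between -0.05 and 0.01. Neighbouring genes are not independent of each other, and no test was made.

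The difference lay in the nearest 3 Mb when all lineages were used. Within 3 Mb of TSR1 the median difference was -0.16 over 78 genes, all 16 genes apart lay in it, and TSR1 had a wider gap than any of them. They included MNT and METTL16 beside TSR1, PELP1, PFN1, RNF167 and ENO3 on one side of it and CRK, TIMM22, GEMIN4 and MRM3 on the other. From 3 to 6 Mb, towards the centromere, the median was -0.02 over 79 genes and none was apart with treated lower, but this contrast between the stretches rested on the DMSO lineage R8: without it, 42 of these 79 genes and 32 of the 78 nearer ones were apart with treated lower. Over 20 Mb away on the same chromosome it was 0.01 over 595 genes, of which 1.01% were apart with treated lower, and 12.9% without R8. Leaving out R1 alone also gave 32 of 78 within 3 Mb, and none of 79 in the next stretch.

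The libraries in which TSR1 was lowest were those in which its neighbours were lowest. As the median log2 deviation from each gene's own median, the 78 genes within 3 Mb stood at -0.69 in R4 at time point 9, -0.64 in R5 at time point 10, -0.46 in R2 at time point 8 and -0.41 in R6 at time point 10. TSR1 itself deviated by -0.64, -0.79, -0.33 and -0.30 in these 4 libraries, its 4 lowest. At time point 1 the neighbours were between 0.08 and 0.18 in all treated and 0.09 and 0.14 in all DMSO libraries. DMSO lineages stayed between -0.07 and 0.17 at every time point, except R8 at time point 9 with -0.30, where TSR1 was at its lowest in R8 with 1121. The low state of a lineage was not kept by every later library: R2 was at -0.46 at time point 8 and -0.20 at time point 10, and no other library followed R4 at time point 9 or R5 at time point 10. Across treated libraries the neighbours' median and TSR1 correlated at r = 0.77 (n = 49), and across DMSO libraries at 0.29 (n = 23). This was not particular to the nearest stretch. The median of genes 3 to 6 Mb away correlated with TSR1 at 0.68 in treated and -0.09 in DMSO libraries. That of genes over 20 Mb away correlated at -0.33 and 0.47. In the same 4 libraries the far genes' median stood at 0.30 in R4, 0.001 in R5, 0.19 in R2 and 0.07 in R6.

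In the next 3 Mb the same libraries of R2 (-0.45), R4 (-0.67) and R5 (-0.55) were low as well. There the DMSO lineage R8 was low too, at -0.27, -0.47, -0.53, -0.75, -0.25 and -0.83 at time points 5 to 10, while R8's genes within 3 Mb of TSR1 stood between -0.02 and 0.09 at the same time points other than 9. R9 and R10 lay between -0.003 and 0.22 there from time point 5. The absence of a treated-against-DMSO difference in that stretch therefore went with low values in both arms: without R8 its median difference was -0.17 and that of the nearer stretch -0.17. R8 at time point 9 stood apart from R8 at time points 8 and 10 in both stretches; its label was followed, and whether it fits that label was not tested. Without this library, left out after its values were seen, all 6 genes were still apart, TSR1 differed by -0.19 with a gap of -0.13, and the medians were -0.16 within 3 Mb and -0.01 from 3 to 6 Mb. Without R2 at time point 8, R4 at time point 9 and R5 at time point 10, libraries named after their values were seen, the median within 3 Mb was -0.11, TSR1's difference was -0.13 and its gap -0.0162. With time points 1 to 7 only, they were -0.09, -0.07 and 0.

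**Figure D5:**
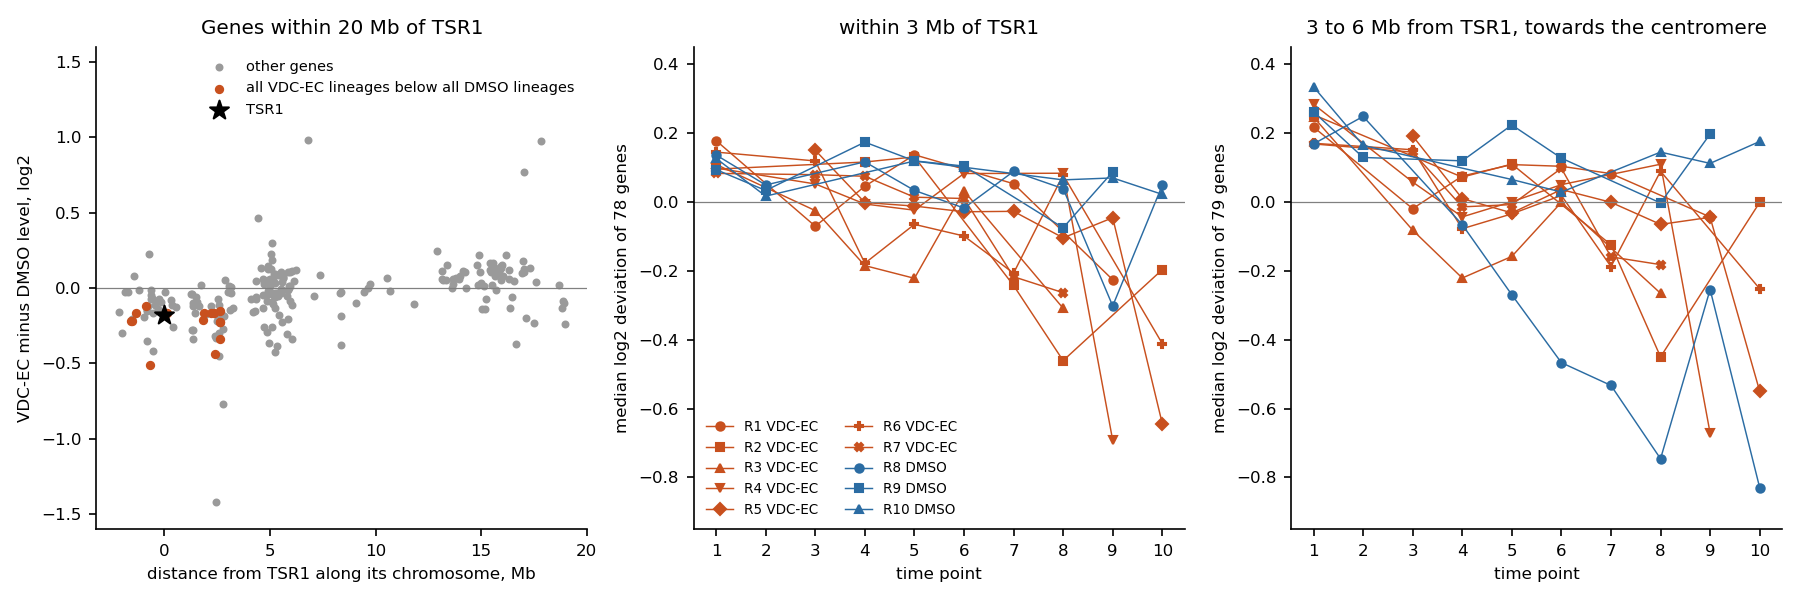
Left, level difference (VDC-EC minus DMSO, log2) of 238 genes within 20 Mb of TSR1 against their distance from it, with genes whose VDC-EC lineages all lie below all DMSO lineages in orange and TSR1 as a star. Middle and right, median log2 deviation of the 78 genes within 3 Mb of TSR1 and of the 79 genes 3 to 6 Mb away, in each library by time point, VDC-EC in orange and DMSO in blue; R4 at time point 9 and R5 at time point 10 are low in both, R8 is low from time point 5 only in the right panel.

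Promoter sequence was examined because tandem GGAA repeats are known binding elements of EWSR1-FLI1. The 250 bases before the RefSeq start (build GRCh38.p14) are printed for CAMK1G and ARHGAP42, the only members whose window lies wholly before the annotated start of the gene, 1 lower and 1 higher in treated lineages. Both are on the plus strand, at chr1:209583464-209583713 and chr11:100687038-100687287. Capitals mark the only motif found, CCAAT read on the opposite strand, 36 to 32 bases before the CAMK1G start.
CAMK1G: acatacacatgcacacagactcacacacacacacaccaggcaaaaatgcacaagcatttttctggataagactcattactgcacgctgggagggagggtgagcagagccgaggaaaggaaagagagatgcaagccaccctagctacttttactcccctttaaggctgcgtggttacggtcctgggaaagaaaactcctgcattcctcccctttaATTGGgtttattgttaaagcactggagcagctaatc
ARHGAP42: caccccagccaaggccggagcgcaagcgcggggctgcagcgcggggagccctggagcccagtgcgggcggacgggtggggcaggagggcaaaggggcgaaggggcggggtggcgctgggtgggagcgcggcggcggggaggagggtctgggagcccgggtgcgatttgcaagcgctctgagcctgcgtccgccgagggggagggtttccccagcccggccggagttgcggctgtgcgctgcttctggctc
The motifs searched on both strands were GGAAGGAA, which 3.06% of 35116 promoter windows of this length held, the AP-1 motif TGANTCA (6.57%), CCAAT (32.01%) and TATAAA (10.7%). None but CCAAT at CAMK1G occurred in the windows of any member, which says only that these letters are not in these windows.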

How the data were processed

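RNA of 73 CHLA-9 libraries was sequenced. STAR, featureCounts and the build GRCh38 are named in the submitters' processing notes, without versions. The deposited values are a signal (quantile-normalized counts) for 36233 genes; how the authors normalized is not given in the sources used here, nor is depth, so no counting interval is printed. Groups came from the labels. The members and gene lists were chosen with earlier results of these data known.

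Values were analysed as log2(value + 1), a pseudocount of 1, for 14565 genes with a mean of at least 10 over all libraries, in R 4.3.3. Models were fitted with limma 3.58.1 (trend option) and tables read with data.table (version 1.17.8), at a Benjamini-Hochberg adjusted p under 0.05. Figures and descriptions used Python 3.11.15, pandas (version 2.3.3), numpy (version 2.4.6) and matplotlib 3.10.9. Levels are lineage terms adjusted for time point, slopes are least squares per lineage with arm means in a single fit, and VDC was compared with EC in 49 libraries with lineage as a replicate block. Lineages are apart where every treated value is beyond every DMSO value. A difference on the log2(value + 1) scale understates the change of low genes. P-values of levels and slopes measure the spread between lineages grown from 1 line. Those of VDC against EC measure the spread of libraries within lineages, with repeated libraries of a culture counted singly. The functions were tested on simulated data.

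By the labels a lineage number marks 1 culture sampled repeatedly. For pairing, the mean correlation of deviations was 0.0814 in 219 same-lineage pairs, against -0.0152 in 1050 other pairs of an arm. Named were the 6 members, genes ranked up to 6 by p in each direction, up to 3 members per pathway list past the threshold with the largest treated slopes, and 3 genes most like each member; further list members and the neighbours of TSR1 were named after their values were seen. Positions are GENCODE 29; promoters are RefSeq. Some members of the gene lists, and 1 list, entered the fits but are not reported here.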

Additional observations from a re-analysis of the deposited data

Results flagged for a closer look

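Of 54 groups of treated values examined, each either the libraries of 1 gene at 1 time point or the lineages' levels or slopes of 1 gene, 4 had a value far from the others by Dixon's criterion, which chance alone gives in about 1 group in 20. PAM was 23.2 in R1 at time point 1, above the other treated libraries. UNC13A was 41.5 in R2 at time point 5, above the others. CAMK1G was 2190 in R1 at time point 3, above the others. ITM2A was 2649 in R5 at time point 7, below the others. R1 and R2 hold 3 of the 4 values, on this scale without log2.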

How the results depend on the processing

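The level difference of each member kept its sign in every alternative. Of the 6 members, 2 were still apart without the last R1 and R2 libraries, 3 without the 6 late libraries and 1 with only time points 1 to 7, the last 2 settings and those without R8 at time point 9 or without 3 libraries low near TSR1 being chosen after the data were seen; 5 were apart with only time points with both arms, where UNC13A overlapped, and all 6 in each other alternative that gives lineage levels. Counts of genes called moved more. For levels, 19 were called with lineage as a random replicate block and, leaving out 1 lineage, 0 to 1352. For treated slopes, 1183 were called without time point 1, against 5693. For DMSO slopes, 1785 in the main setting, 427 were called with no filter on low values, 2769 without late DMSO libraries, 9 without time point 1, 1167 with only time points with both arms, 3320 without the 6 late libraries, 4180 with time points 1 to 7 and 37 to 2818 leaving out 1 lineage. For the slope difference, 1 was called with no filter and 0 to 212 leaving out 1 lineage. For VDC minus EC, 6 were called with a pseudocount of 5, 50 without the last R1 and R2 libraries, 50 without the 6 late libraries, 39 with time points 1 to 7, 41 with no replicate block, 1104 with no time term and 0 to 164 leaving out 1 lineage. The causes were not tested. The DMSO slopes of PAM and ITM2A lost their call with no filter, without time point 1, without R9 and without R10. 3 DMSO lineages, a single DMSO library at time point 7 and unknown depth limit every comparison. Slopes and differences that turned round were all short of the threshold. Without late DMSO libraries the DMSO slope of UNC13A was -0.13, its slope difference 0.031 and that of PAM -0.064; without the 6 late libraries they were -0.13, 0.10 and -0.14, and with time points 1 to 7 -0.16, 0.10 and -0.14. The DMSO slope of CAMK1G was 0.0091 without time point 1 and 0.021 with only time points with both arms, where its treated slope was 0.013. Its slope difference was -0.0014 without the last R1 and R2 libraries, -0.051 without time point 1, -0.0087 with only time points with both arms and, leaving out 1 lineage, from -0.0095 to 0.031. The treated slope of TSR1 was 0.0043 with time points 1 to 7. UNC13A after VDC minus after EC was -0.090 with time points 1 to 7, -0.033 without the 3 libraries low near TSR1 and -0.10 to 0.301 leaving out 1 lineage.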

Other observations

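The mitochondrially encoded genes (13 of 13 kept) fell per time point in both arms, with median slopes of -0.14 in treated and -0.22 in DMSO lineages, and their summed level ran from 47822 to 486850 in treated and from 60138 to 379000 in DMSO libraries. Proliferation genes (10 of 10 kept) did not pass in treated lineages, and 1, AURKA, rose in DMSO lineages by 0.16. Of the immediate early genes (10 of 10 kept), JUN, JUNB, EGR1, IER2 and ATF3 rose in treated lineages, by 0.14 to 0.34, and none passed in DMSO lineages; the difference between arms passed for none of them (limma).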
